A study of Mus musculus with 4 samples.

Results

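The surface marker genes of blood progenitors and myeloid cells were followed in mouse leukemia cells with and without Msi2. They are Cd34, Thy1, Cd93, Cd24a, Cd33, Cd28, Spn, Cd47, Cd44 and Cd9, found by their symbols as 10 of 23284 gene rows. The libraries come from leukemic cells of an MLL leukemia sorted for high c-Kit, taken from 2 Msi2 -/- mice and from 2 Msi2 flox/flox mice (called controls) of the strain C57BL/6, with 1 library per mouse. All 4 mice thus carried the leukemia, and all cells went through the same sort. The MLL fusion, the Cre line, the age of the mice and the time of deletion are not stated in the labels. Musashi-2, the product of Msi2, binds RNA and steers translation in blood stem cells.

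Surface proteins of this kind are used to place a blood cell on the path from stem cell to mature cell. CD34 marks early progenitors and is lost as they mature, while CD33 and CD24 are found on maturing myeloid cells. Others do a job at the surface. CD47 tells phagocytes to leave a cell alone, CD44 holds cells to hyaluronan in the marrow, and CD43 (from Spn) is a long, sialic acid-rich mucin of white blood cells. In leukemia several of them are used to sort or target the cells that renew the disease. RNA levels do not show how much protein stood at the surface.

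Read depth was 87564774 and 78659396 gene counts in Msi2 -/- replicates 1 and 2, against 79845492 and 72273679 in control replicates 1 and 2. Levels are given as CPM, read counts set to a common library size after TMM scaling. A count of 3, used here as the floor, equals 0.0343 to 0.0415 CPM, so counting error is small for every member. Msi2 itself had 0.0915 and 0.221 CPM in the Msi2 -/- libraries, against 34.6 and 48.9 CPM in the controls. Kit, the gene of the sorted protein, had 68.1 and 57.1 CPM in the Msi2 -/- libraries, against 50.4 and 51.9 CPM in the controls. Xist, the transcript of the inactive X chromosome, chosen after its values were seen, had 0.469 and 0.624 CPM in the Msi2 -/- libraries and 1455 and 654 CPM in the controls, so sex and genotype cannot be told apart. None of the 10 members lies on X or Y. The library names open with a number that is shared within each group and differs between them, so any batch it may mark and the genotype cannot be told apart.

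All 10 members passed the filter on low counts. By edgeR's quasi-likelihood test with adjustment over 13215 genes, 0 of the 10 passed an adjusted p of 0.05 in either direction. Over all tested genes that test called 0% higher and 0.00757% lower. It did not call the deleted gene either: for Msi2 the log2 fold change was -8.07 (SE 0.485) and the edgeR adjusted p 0.122, so 0 calls by this test with 2 mice per group do not show that levels were alike. Before adjustment, 2 members (Spn and Cd47) were higher with a p under 0.05 and 0 were lower, where 6.69% of all tested genes were higher and 6.17% lower. DESeq2 called the same 2 genes higher, against 3.12% of genes higher and 2.73% lower over all genes it tested. The likelihood ratio test of edgeR called 1 member higher (Spn), against 0.908% of genes higher and 1.45% lower, and limma-voom called 0 members and 0 genes. Both Msi2 -/- libraries lay above both controls for those 2 members, and below both controls for 0 members. Over all tested genes the groups did not overlap in 23.7% with Msi2 -/- higher and in 24.6% with Msi2 -/- lower, so the count of members that were higher without overlap is near the background, and the count of those lower, 0, is under it. An exact permutation test of 2 against 2 mice cannot go below p = 0.33.

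**Figure D1:**
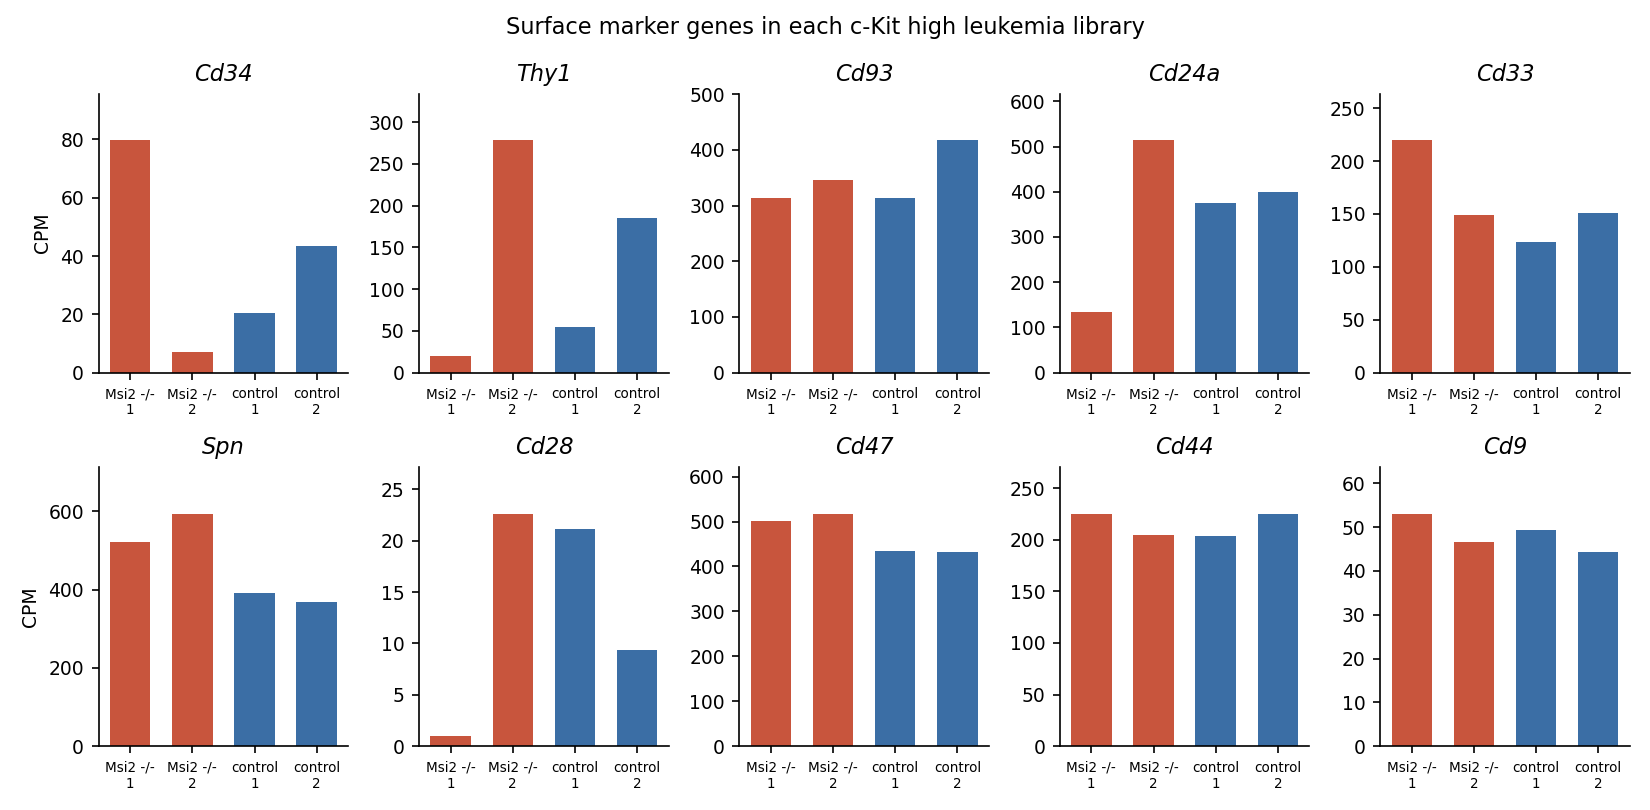
Level of each surface marker gene in CPM (vertical axis, from 0, own scale per panel) in Msi2 -/- replicates 1 and 2 (red bars) and control replicates 1 and 2 (blue bars). Spn and Cd47 are higher in both Msi2 -/- libraries than in both controls, while Cd34, Thy1, Cd24a and Cd28 differ mostly between the 2 Msi2 -/- mice.

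Spn encodes CD43 (leukosialin), a mucin that is tied to the cytoskeleton and can both hold cells apart and signal. It had 520 and 594 CPM in Msi2 -/- replicates 1 and 2, against 391 and 367 CPM in control replicates 1 and 2. Both Msi2 -/- libraries were above both controls, and the gap between the groups was larger than the gap within either. The mean was 557 ± 52.3 CPM in Msi2 -/- cells and 379 ± 16.9 CPM in controls (SD, n = 2 each). The log2 fold change was 0.56 (SE 0.0951, 95% interval 0.30 to 0.81), where the adjusted p was 0.282 for edgeR, 6.00e-05 for DESeq2 and 0.0115 for edgeR's likelihood ratio test. Libraries were also left out in turn with DESeq2, an alternative added after the data were seen. The log2 fold change was 0.66 without Msi2 -/- replicate 1 and 0.46 without Msi2 -/- replicate 2. It was 0.61 without control replicate 1 and 0.52 without control replicate 2. Each of these fits leaves 1 library in a group, and DESeq2's call was lost without control replicate 2.

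Cd47 encodes the membrane protein that binds SIRPα on macrophages and holds back their eating of the cell. It had 501 and 518 CPM in the Msi2 -/- libraries, against 435 and 432 CPM in the controls. The groups did not overlap, and the mice within each group were close to each other. Its log2 fold change was small, 0.23 (SE 0.0634, 95% interval 0.06 to 0.40), and edgeR gave an adjusted p of 0.335, DESeq2 one of 0.0163. DESeq2's call was lost whichever library was left out, with adjusted p between 0.349 and 0.807.

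**Figure D2:**
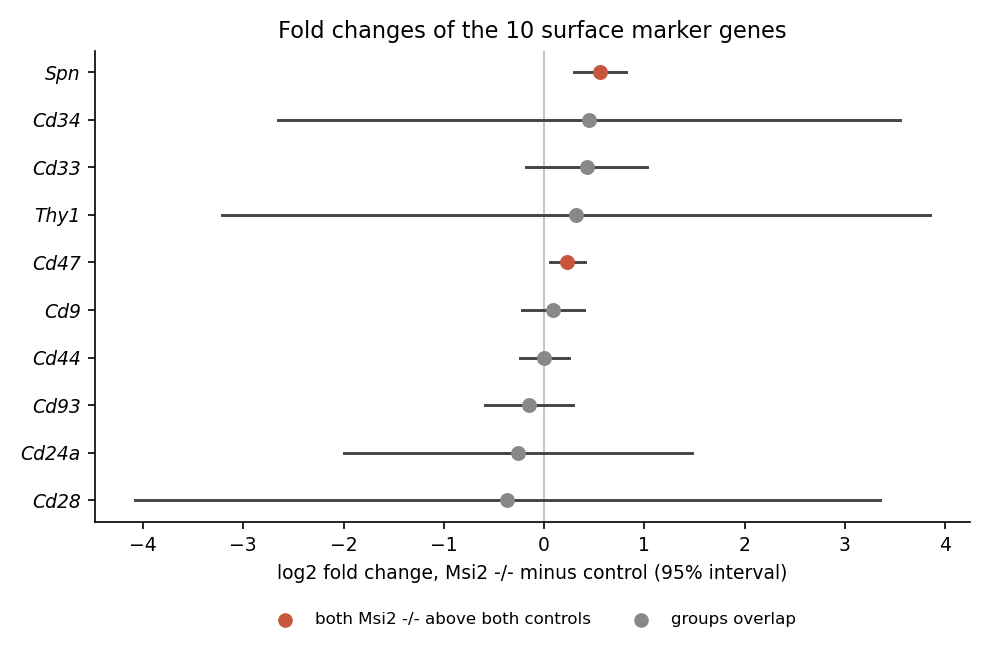
Log2 fold change of each member, Msi2 -/- minus control (horizontal axis), with the 95% interval of edgeR's quasi-likelihood fit as a line. Spn at 0.56 and Cd47 at 0.23, in red, have intervals above 0, and the intervals of Cd34, Thy1 and Cd28 run over several log2 units on both sides of 0.

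Cd34, Thy1, Cd24a and Cd28 did not separate the genotypes. They differed far more between the 2 Msi2 -/- mice than between the group means. Cd34 was high in Msi2 -/- replicate 1 where the other 3 were low, and low in replicate 2 where the other 3 were high.

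Cd34 encodes a sialomucin of early progenitors and of vessel walls. It had 79.8 and 7.02 CPM in Msi2 -/- replicates 1 and 2, against 20.3 and 43.5 CPM in control replicates 1 and 2. The Msi2 -/- libraries held the highest and the lowest of the 4 values, 11.4-fold apart, and the controls were 2.14-fold apart. The fitted log2 fold change was 0.45 (SE 1.15, 95% interval -2.66 to 3.55, edgeR adjusted p = 0.894), and it was -2.17 without Msi2 -/- replicate 1, with 1 Msi2 -/- mouse left. A change of several fold in either direction lies within that interval.

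Thy1 encodes a small GPI-anchored protein, best known from T cells and also found on mouse stem cells. It had 19.6 and 279 CPM in Msi2 -/- replicates 1 and 2, against 54.4 and 185 CPM in control replicates 1 and 2. Again the Msi2 -/- mice held both extremes, 14.2-fold apart, with the controls 3.40-fold apart between them. On the log2 scale the fold change was 0.32 (SE 1.31, 95% interval -3.21 to 3.85, edgeR adjusted p = 0.937), and -2.61 without Msi2 -/- replicate 2.

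Cd24a encodes heat-stable antigen, a GPI-anchored, heavily glycosylated protein of maturing blood cells and a ligand of Siglec receptors. It had 134 and 515 CPM in Msi2 -/- replicates 1 and 2, against 375 and 401 CPM in the controls. The controls were nearly equal, and 1 Msi2 -/- mouse lay below them and the other above. The log2 fold change was -0.26 (SE 0.643, 95% interval -2.00 to 1.48, edgeR adjusted p = 0.891). Without Msi2 -/- replicate 2 it was -1.53, and without replicate 1 it was 0.42, each time with 1 Msi2 -/- mouse left. Intronless copies of Cd24a are known in the mouse genome, and the sources used here do not say how shared reads were counted.

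Cd28 encodes the costimulatory receptor of T cells, which binds CD80 and CD86. It had 1.02 and 22.6 CPM in Msi2 -/- replicates 1 and 2, against 21.1 and 9.40 CPM in control replicates 1 and 2. Msi2 -/- replicate 1 was lowest by far, with 89 reads, and the other 3 libraries had between 685 and 1742 reads. Its log2 fold change was -0.37 (SE 1.37, 95% interval -4.08 to 3.34, edgeR adjusted p = 0.931), and 0.58 without Msi2 -/- replicate 1. Without replicate 2 it was -3.90. Each of these 2 values rests on 1 Msi2 -/- mouse.

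Thy1 and Cd28 are both also T cell genes, and markers of other blood cells were read beside them. Of 14 T cell markers, 5 had no count in any library (Cd3e, Cd3g, Cd8a, Cd8b1 and Cd2) and 11 were under 1 CPM in all 4. Their summed level was 12.3 to 16.1 CPM in Msi2 -/- libraries and 12.4 to 15.5 CPM in controls. Lck, a kinase gene of T cells, had 6.499 and 9.45 CPM in the Msi2 -/- libraries, against 8.96 and 9.95 CPM in the controls, and with Lat it gave most of the sum. The sum was lower in the Msi2 -/- library with high Thy1 and Cd28 than in the one with low levels. The 9 B cell markers summed to 21.9 and 19.6 CPM in the Msi2 -/- libraries, against 28.3 and 27.8 CPM in the controls. Nearly all of that was Cd79b, and Ms4a1, Pax5 and Ebf1 were at 0 in all libraries. All 9 erythroid markers were under 1 CPM. The part of these cells in the levels of Thy1 and Cd28 was not tested.

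Myeloid marker lists also differed between the 2 Msi2 -/- mice. The 11 monocyte and macrophage markers found in the table summed to 84.6 CPM in Msi2 -/- replicate 1 and 472 CPM in replicate 2, against 191 and 286 CPM in controls. The macrophage complement genes C1qa, C1qb and C1qc were at or near 0 throughout. The 9 mature neutrophil markers found summed to 578 and 991 CPM in the Msi2 -/- libraries, against 657 and 389 CPM in the controls. The 10 markers of immature myeloid leukemia cells summed to 9872 and 15571 CPM in the Msi2 -/- libraries, against 14252 and 14459 CPM in the controls. The sum was lowest in Msi2 -/- replicate 1, with high Cd34, for the monocyte and the immature list, and highest in replicate 2 for all 3 lists. Single genes carried much of this. Most of the neutrophil sums was Ngp, with 375 and 512 CPM in the Msi2 -/- libraries, against 437 and 246 CPM in the controls. Ngp, Cd177, Camp and Lcn2 were highest in Msi2 -/- replicate 2. Ltf was highest in Msi2 -/- replicate 1, and Mmp8, Cxcr2, Mmp9 and Retnlg in control replicate 2. Ccr2 gave 19.98 and 312 CPM of the monocyte sums in the Msi2 -/- libraries, against 130 and 199 CPM in the controls, while Csf1r had 10.5 and 14.0 CPM in the Msi2 -/- libraries, against 4.32 and 6.39 CPM in the controls. The immature sums were mostly the granule genes Mpo, Elane, Prtn3 and Ctsg. The other genes of that list went different ways. Kit and Meis1 were highest in Msi2 -/- replicate 1, Cebpa and Ptprc in Msi2 -/- replicate 2, and Hoxa9 and Myb in control replicate 1. Myb was lowest in Msi2 -/- replicate 1. In bulk RNA a different share of cells of a type and a different level per cell cannot be told apart, and the part of these markers in the 4 members' values was not tested.

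These 4 gaps were large among all tested genes. Between the 2 Msi2 -/- mice the absolute difference in log2 CPM was 4.44 for Cd28, 3.83 for Thy1, 3.50 for Cd34 and 1.94 for Cd24a, where the median of tested genes was 0.17. A larger gap was found in 0.31% of tested genes for Cd28, 0.621% for Thy1, 0.9% for Cd34 and 4.31% for Cd24a. Between the controls the gaps were 1.17 for Cd28, 1.76 for Thy1, 1.098 for Cd34 and 0.09 for Cd24a, where the median was 0.15. Gaps above 2 were found in 4.12% of tested genes between the Msi2 -/- mice and in 1.15% between the controls. The gap between Msi2 -/- mice was larger than that between controls in 8 of the 10 members. The same share over all tested genes was not computed, and their median gap was also larger between Msi2 -/- mice (0.17 against 0.15). No test was made of these gaps, since each group has 2 mice.

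**Figure D3:**
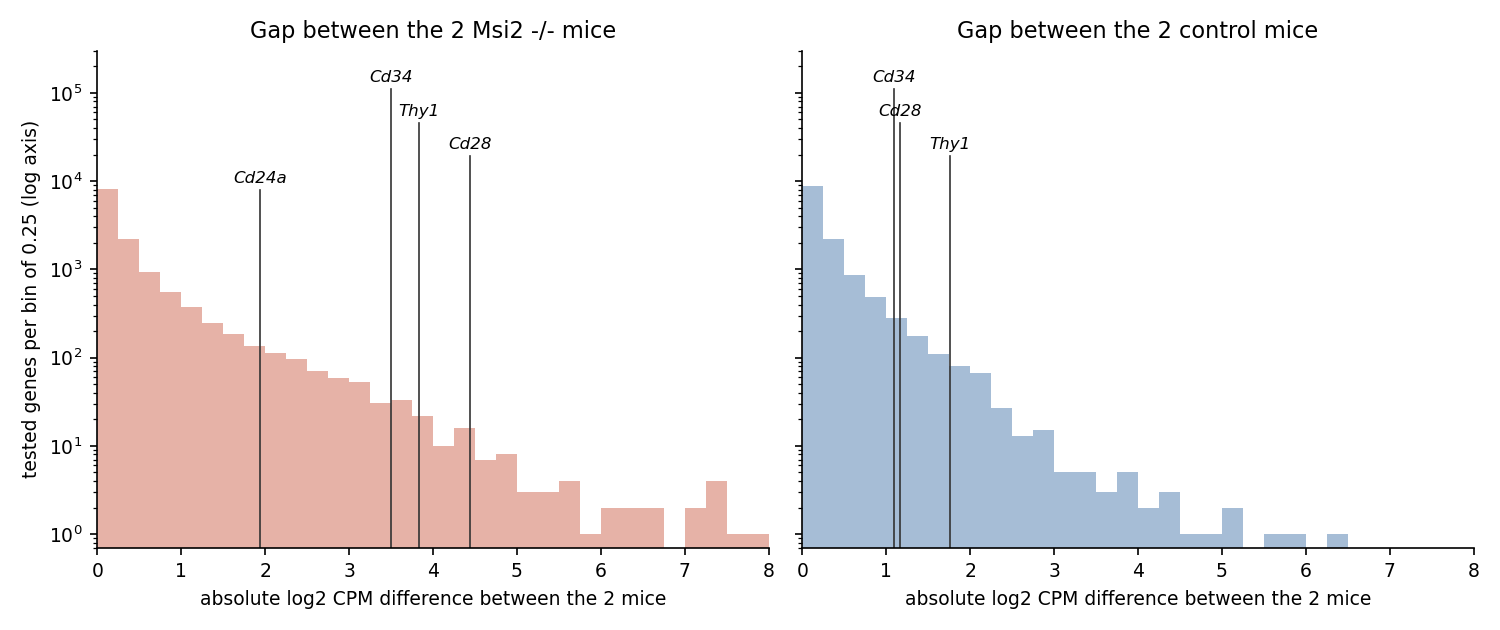
Number of tested genes (vertical log axis) by absolute difference in log2 CPM between the 2 mice of a group (horizontal axis, bins of 0.25), for Msi2 -/- mice on the left and controls on the right. Lines mark members with a gap above about 1, and Cd24a, Cd34, Thy1 and Cd28 stand in the tail of the Msi2 -/- panel at 1.94, 3.50, 3.83 and 4.44.

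The genes with the closest profile over the 4 libraries were sought for the 3 members that ranged over more than 2 log2 units. Likeness was the Euclidean distance between centred log2 CPM profiles, among 8578 genes averaging 3 or more in log2 CPM. For Cd34 they were Pbx3 (distance 0.725), a homeobox cofactor gene, Cgnl1 (0.746), a junction protein gene, and Col19a1 (0.840), a collagen gene. Pbx3 had 99.6 and 14.98 CPM in the Msi2 -/- libraries, against 29.5 and 47.2 CPM in the controls. For Thy1 they were Ccr2 (1.004), a chemokine receptor gene of monocytes, Nefh (1.096) and Lgals3bp (1.17). Ccr2 had 19.98 and 312 CPM in the Msi2 -/- libraries, against 130 and 199 CPM in the controls. For Cd28 they were Nrp2 (0.765), Mgam (0.771) and Glyat (0.777), with Nrp2, a semaphorin receptor gene, at 2.52 and 77.3 CPM in the Msi2 -/- libraries, against 34.3 and 20.6 CPM in the controls. With 4 libraries many genes can come this close, so the likeness is a description only.

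**Figure D4:**
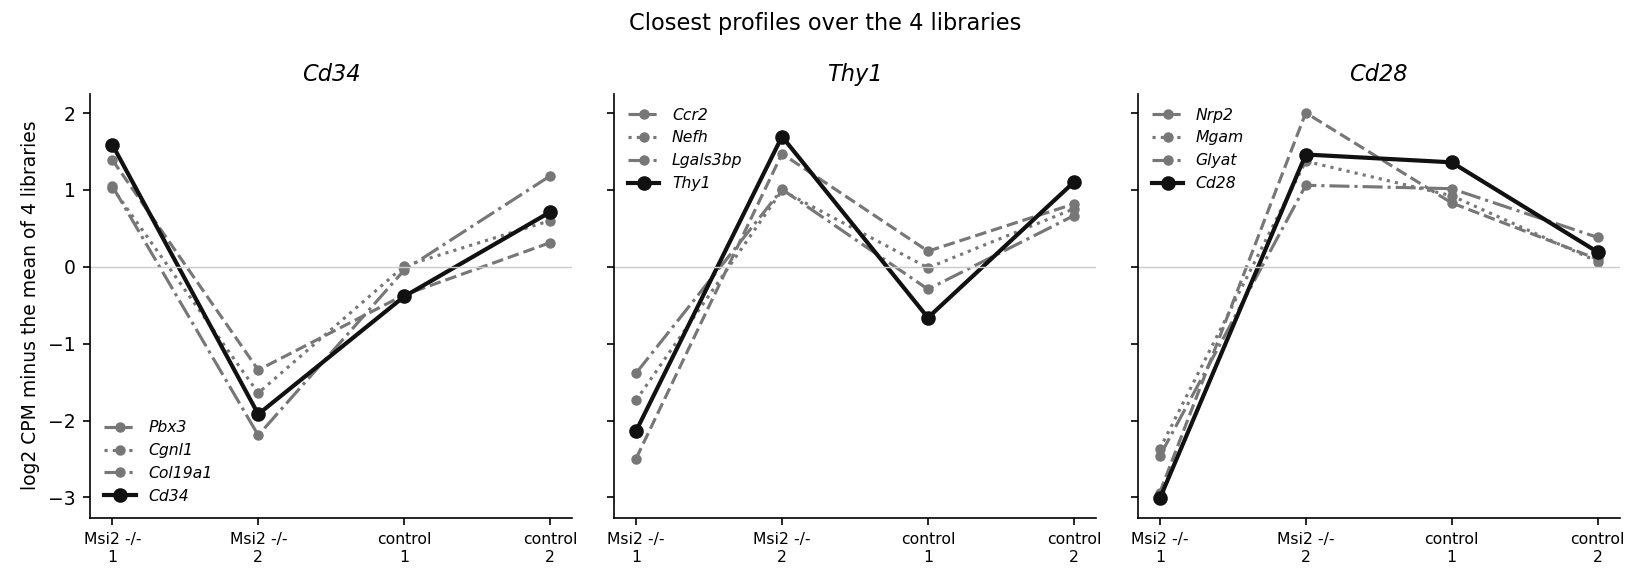
Log2 CPM minus its mean over the 4 libraries (vertical axis) for Cd34, Thy1 and Cd28 (black) and the 3 genes closest to each (grey), in Msi2 -/- replicates 1 and 2 and control replicates 1 and 2. Cd34 and its closest genes peak in Msi2 -/- replicate 1 or control replicate 2 and are lowest in Msi2 -/- replicate 2, and Thy1 and Cd28 are lowest in Msi2 -/- replicate 1.

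Cd33 encodes a sialic acid-binding Siglec receptor of myeloid cells and a drug target in human leukemia. It had 220 and 149 CPM in Msi2 -/- replicates 1 and 2, against 124 and 151 CPM in the controls. Msi2 -/- replicate 1 was highest, and replicate 2 lay within the range of the controls. The fitted log2 fold change was 0.43 (SE 0.223, 95% interval -0.18 to 1.03), and edgeR gave an adjusted p of 0.479, DESeq2 one of 0.328. The log2 fold change was 0.68 without Msi2 -/- replicate 2 and 0.13 without replicate 1, each time with 1 Msi2 -/- mouse left.

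Cd93 encodes a C-type lectin-like receptor of progenitors, endothelium and myeloid cells. It had 314 and 345 CPM in the Msi2 -/- libraries, against 314 and 418 CPM in the controls. The groups overlapped, and control replicate 2 was highest. On the log2 scale the fold change was -0.15 (SE 0.161, 95% interval -0.58 to 0.28, edgeR adjusted p = 0.717).

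Cd44 encodes the hyaluronan receptor that leukemic cells use to stay in the marrow. It had 226 and 205 CPM in the Msi2 -/- libraries, against 204 and 225 CPM in the controls, and the groups covered nearly the same range. Its log2 fold change was 0.003 (SE 0.0907, 95% interval -0.24 to 0.25, edgeR adjusted p = 0.991). Counts per gene do not show which CD44 splice forms were made.

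Cd9 encodes a tetraspanin that organises adhesion receptors in the membrane. It had 53.1 and 46.6 CPM in the Msi2 -/- libraries, against 49.4 and 44.2 CPM in the controls. The groups overlapped, at a log2 fold change of 0.09 (SE 0.114, 95% interval -0.22 to 0.40, edgeR adjusted p = 0.761). In GENCODE M21 a transcript on the opposite strand covers 10.7% of the Cd9 exons, and one covers 2.03% of the Cd34 exons. The strand setting of the counting is not given, so reads in those stretches cannot be told apart.

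Per kilobase of exons the members spanned a wide range. In the Msi2 -/- libraries the means, in CPM per kilobase of merged GENCODE M21 exons, were 126 for Cd24a, 119 for Spn, 81.2 for Cd47, 49.8 for Thy1 and 49.3 for Cd93. They were 31.8 for Cd44, 24.4 for Cd9, 23.7 for Cd33, 5.96 for Cd34 and 1.93 for Cd28. In the controls the means were 150 for Cd24a, 81.0 for Spn, 69.1 for Cd47, 54.8 for Cd93 and 39.9 for Thy1. They were 31.7 for Cd44, 22.9 for Cd9, 17.7 for Cd33, 4.37 for Cd34 and 2.49 for Cd28. In the controls the neighbours Cd93 and Thy1, Thy1 and Cd44, and Cd34 and Cd28 overlapped between mice, and the other neighbours in that order did not. Between the Msi2 -/- mice more neighbours overlapped: Cd24a and Spn, Cd47 and Thy1, Thy1 and Cd93, Cd9 and Cd33, and Cd34 and Cd28. On this length-scaled level the means of Cd34 and Cd28 were the lowest in both genotypes, but in Msi2 -/- replicate 1 Thy1 (6.54) lay below Cd34 (10.9). The authors' gene models are not given, so these lengths are approximate.

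RefSeq promoter windows, from 250 bases before to 50 bases after the annotated start on GRCm38.p6, were found for 6 of the 10 members. The windows of Spn and Cd47 are shown because these are the 2 members whose groups did not overlap, and that of Cd34 because it differed most among the progenitor genes with a window. Capitals mark GGGCGG (the GC box) or CCGGAA (an ETS core) on either strand. The motif GAGGAA, which shares its last 4 letters with the ETS core, was also searched on both strands. So were CCAAT and, for the TATA box, TATAAA. Cd47 has a second, nearly identical window for another start, which is not printed.
Spn, chr7:127137774-127138073, minus strand: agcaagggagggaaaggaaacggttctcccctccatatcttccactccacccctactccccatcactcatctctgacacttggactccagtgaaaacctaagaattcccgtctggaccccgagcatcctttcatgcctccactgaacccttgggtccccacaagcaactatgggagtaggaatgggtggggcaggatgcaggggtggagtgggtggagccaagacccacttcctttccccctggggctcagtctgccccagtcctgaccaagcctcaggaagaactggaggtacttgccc
Cd47, chr16:49855404-49855703, plus strand: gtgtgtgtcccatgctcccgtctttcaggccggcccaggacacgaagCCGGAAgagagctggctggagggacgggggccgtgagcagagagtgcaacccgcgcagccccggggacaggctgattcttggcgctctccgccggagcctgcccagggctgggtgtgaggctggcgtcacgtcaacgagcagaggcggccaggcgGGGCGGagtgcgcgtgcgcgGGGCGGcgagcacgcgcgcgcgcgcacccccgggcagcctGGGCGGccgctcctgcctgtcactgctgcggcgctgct
Cd34, chr1:194938571-194938870, plus strand: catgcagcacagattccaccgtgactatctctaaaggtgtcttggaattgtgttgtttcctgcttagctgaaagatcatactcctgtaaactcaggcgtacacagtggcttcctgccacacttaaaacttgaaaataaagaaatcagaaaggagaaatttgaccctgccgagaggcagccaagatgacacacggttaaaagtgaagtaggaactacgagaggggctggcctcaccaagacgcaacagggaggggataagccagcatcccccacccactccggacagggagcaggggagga
The Cd47 window is 74.0% G and C and holds GGGCGG 3 times and CCGGAA 1 time. The Spn window is 57.3% and the Cd34 window 50% G and C, and neither holds any of the 5 motifs. Over all 32851 windows of this length the median was 52.7%, and 35.7% hold GGGCGG, 14.9% CCGGAA, 13.6% TATAAA, 37.4% CCAAT and 28.3% GAGGAA. The Spn and Cd47 windows thus differ in base composition and in these motifs, and nothing follows from a match or its lack about the factors.

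Among the partners of CD43, Ezr stood out beside Spn in DESeq2's calls. CD43 and CD44 are fixed to the actin cortex by ezrin, radixin and moesin, the products of Ezr, Rdx and Msn. Of the 8 tested genes in the CD43 list, 7 lay above 0 and 1 below on the log2 fold change scale (median 0.16), where 49.7% of all tested genes lay above 0 and their median was -0.002. Leaving out each library moved that median between 0.036 (without control replicate 1) and 0.24. edgeR called 0 of the 8, and DESeq2 called 2 higher (Spn and Ezr) and 1 lower (Gcnt1). Over all genes it tested, DESeq2 called 3.12% higher and 2.73% lower, which is the background for the lists below as well. Before adjustment, edgeR's p was under 0.05 for 3 higher genes and 1 lower gene, against 6.69% and 6.17% of all tested genes.

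Ezr had 222 and 226 CPM in the Msi2 -/- libraries, against 120 and 150 CPM in the controls. Both Msi2 -/- mice were above both controls, and the 2 Msi2 -/- values were nearly equal. The log2 fold change was 0.74 (SE 0.126), and edgeR gave an adjusted p of 0.282, DESeq2 one of 5.66e-05. With each library left out in turn, the log2 fold change of Ezr lay between 0.59 and 0.91. Msn had 594 and 565 CPM in the Msi2 -/- libraries, against 493 and 513 CPM in the controls (log2 fold change 0.20, SE 0.0695, DESeq2 adjusted p = 0.101). Gcnt1, for the enzyme that starts branched O-glycans on CD43, had 14.1 and 13.3 CPM in the Msi2 -/- libraries, against 18.7 and 24.2 CPM in the controls. Its log2 fold change was -0.65 (SE 0.177, DESeq2 adjusted p = 0.04), and DESeq2's call was lost whichever library was left out, with adjusted p from 0.0953 to 0.9998.

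The remaining CD44 partners were mixed. Of 11 tested genes in that list, which shares Ezr, Rdx and Msn with the CD43 list, 7 lay above 0 and 4 below, with a median log2 fold change of 0.03 (-0.0017 to 0.078 with each library left out, negative without Msi2 -/- replicate 1 or control replicate 1). edgeR called 0 and DESeq2 called 1 higher, Ezr.

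In the CD47 list, Cd47 itself was the only gene called, and only by DESeq2. Of 8 tested members of that list 5 lay above 0 and 3 below, with a median log2 fold change of 0.09 (0.19 without Msi2 -/- replicate 1, 0.019 without Msi2 -/- replicate 2, 0.16 without control replicate 1 and 0.027 without control replicate 2). edgeR called 0 and DESeq2 called 1 higher, Cd47. Thbs1, for thrombospondin, a secreted ligand of CD47, had 184 and 279 CPM in the Msi2 -/- libraries, against 29.7 and 101 CPM in the controls. Both Msi2 -/- mice were above both controls, but the controls were 3.39-fold apart, at a log2 fold change of 1.83 (SE 0.639, edgeR adjusted p = 0.374, DESeq2 adjusted p = 0.221). With 1 control left, the log2 fold change of Thbs1 was 1.21 without control replicate 1 and 2.97 without control replicate 2. Qpctl, for the enzyme that modifies the end of CD47 where SIRPα binds, had 24.9 and 24.1 CPM in the Msi2 -/- libraries, against 20.7 and 16.6 CPM in the controls (log2 fold change 0.39, SE 0.154, DESeq2 adjusted p = 0.226). Sirpa, the receptor gene, was added after its values were seen, and had 166 and 181 CPM in the Msi2 -/- libraries, against 161 and 156 CPM in the controls.

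**Figure D5:**
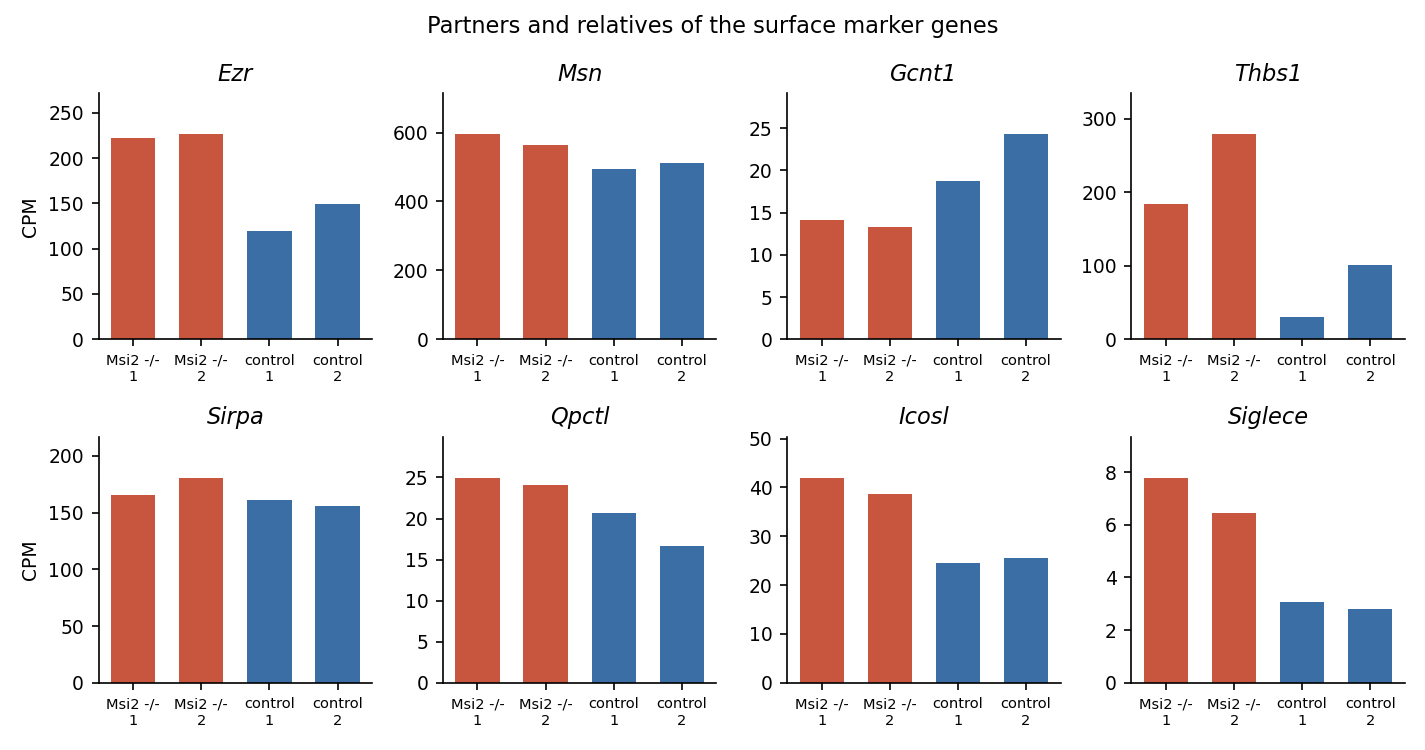
Level in CPM (vertical axis, from 0, own scale per panel) of partners and relatives of the members in Msi2 -/- replicates 1 and 2 (red bars) and control replicates 1 and 2 (blue bars). Ezr and Icosl are higher and Gcnt1 is lower in both Msi2 -/- libraries than in both controls, and the controls of Thbs1 are 3.39-fold apart.

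Relatives of Cd28 included 1 ligand gene called by DESeq2. Icosl, for the ligand of ICOS, had 41.9 and 38.6 CPM in the Msi2 -/- libraries, against 24.5 and 25.5 CPM in the controls. Both groups were tight and did not overlap, at a log2 fold change of 0.69 (SE 0.103), and edgeR gave an adjusted p of 0.271, DESeq2 one of 2.61e-06. DESeq2's call was lost without control replicate 1 (adjusted p = 0.0736) and without control replicate 2 (adjusted p = 0.0608). Pdcd1lg2, a ligand gene of PD-1, was low, with 0.561 and 0.455 CPM in the Msi2 -/- libraries, against 0.222 and 0.206 CPM in the controls. Of 9 tested genes in the list 5 lay above 0 and 4 below, with a median log2 fold change of 0.16, and edgeR called 0. The median was 0.11 without Msi2 -/- replicate 1, 0.44 without Msi2 -/- replicate 2, 0.34 without control replicate 1 and 0.48 without control replicate 2.

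Relatives of Cd33 in the Siglec family included Siglece, an inhibitory Siglec gene of mouse myeloid cells. It had 7.78 and 6.43 CPM in the Msi2 -/- libraries, against 3.07 and 2.81 CPM in the controls. The groups did not overlap, at a log2 fold change of 1.27 (SE 0.231), and edgeR gave an adjusted p of 0.291, DESeq2 one of 0.000165. DESeq2's call held only without Msi2 -/- replicate 2 among the 4 left-out libraries, and the adjusted p was 0.128 to 0.343 without each of the others. Siglecg, for a receptor that binds CD24, had 1.28 and 2.77 CPM in the Msi2 -/- libraries, against 0.950 and 0.768 CPM in the controls (log2 fold change 1.23, SE 0.497, edgeR adjusted p = 0.406). Of 7 tested genes in the list, which holds Cd33 and Cd24a too, 4 lay above 0 and 3 below, with a median of 0.06. It was 0.37 without Msi2 -/- replicate 1, -0.013 without Msi2 -/- replicate 2, -0.012 without control replicate 1 and 0.24 without control replicate 2.

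Among the tetraspanins, relatives of Cd9, DESeq2 called 2 genes. Of 21 tested genes in the list 13 lay above 0 and 8 below, with a median log2 fold change of 0.05, which was -0.12 without Msi2 -/- replicate 1 and between 0.0012 and 0.093 without each of the others. edgeR called 0. Its p before adjustment was under 0.05 for 2 higher and 5 lower genes, against 6.69% higher and 6.17% lower of all tested genes. By DESeq2, Tspan7 and Tspan13 were called lower, against 3.12% of genes higher and 2.73% lower over all genes it tested. Tspan13 had 1.57 and 1.04 CPM in the Msi2 -/- libraries, against 2.80 and 7.30 CPM in the controls (DESeq2 adjusted p = 0.0349). Tspan7, an X-linked tetraspanin gene, had 0.229 and 0.104 CPM in the Msi2 -/- libraries, against 1.70 and 4.43 CPM in the controls (log2 fold change -4.18, SE 0.745, DESeq2 adjusted p = 1.74e-05). DESeq2's call of Tspan7 was lost without control replicate 2, and sex and genotype cannot be told apart for this X-linked gene. Tspan8 had 0 and 0 reads in the Msi2 -/- libraries, against 14 and 26 reads in the controls. Both were thus low in these cells, while Cd9 itself overlapped between the groups.

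The genes listed beside Cd34 and Cd93 gave few or no reads, other than Thbd. Podxl and Emcn, the 2 sialomucin genes listed beside Cd34, did not pass the filter on low counts, and Emcn had no count in any library. That list does not cover every relative of Cd34. Of the lectin genes related to Cd93, Clec14a had no count, and Thbd, for thrombomodulin, had 17.6 and 5.72 CPM in Msi2 -/- replicates 1 and 2, against 16.6 and 25.9 CPM in the controls (log2 fold change -0.86, SE 0.598, edgeR adjusted p = 0.583). With 1 Msi2 -/- mouse left, the log2 fold change of Thbd was -1.88 without replicate 1 and -0.27 without replicate 2. Mmrn2, a ligand gene of CD93, lay between 0.0137 and 0.172 CPM in all libraries. Of the 3 tested genes in the lectin list, which includes Mmrn2, 1 lay above 0 and 2 below, and neither edgeR nor DESeq2 called any. The median log2 fold change was -0.15 (-0.64 without Msi2 -/- replicate 1 and -0.39 to -0.22 without each of the others). The -0.64 and the -0.39 (without control replicate 2) were the values of Mmrn2. That gene had only 15 and 4 reads in the Msi2 -/- libraries, against 12 and 1 in the controls.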

How the data were processed

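Each library's table, as deposited, holds whole-number counts of reads by gene symbol, with no normalization. The submitters' processing notes list Trimmomatic, STAR, HTSeq, DESeq and mm9, with no version numbers. No source used here states the annotation, strand setting or overlap mode. The 5 closing rows that name no gene took 19.1% to 20.1% of counts and were left out. Libraries were mapped to groups by title. Replicates differed far beyond sampling noise (chi-square per gene 151 between Msi2 -/- and 62.1 between control libraries), so each counts as 1 sample.

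Under R 4.3.3, genotype was tested with the quasi-likelihood F-test of edgeR 4.0.16, without other terms, after filterByExpr (minimum count 10, total 15) and TMM scaling, two-sided, with Benjamini-Hochberg adjustment over 13215 genes at 0.05. Fold changes are log2, Msi2 -/- minus control, and standard errors come from the F statistic. CPM use the TMM-scaled sizes. DESeq2 1.42.0 (Wald test, no shrinkage), limma 3.58.1 (voom), edgeR's likelihood ratio test, other scalings and filters, a replicate block and leaving out each library were alternatives. With 1 library left out, the lone library of its group is assumed to vary like the other group. Floors cover counting error only, and p-values measure the spread between these mice. The steps were also run on simulated counts, where the median error of the fold changes was checked and no limit was set on missed or false calls.

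The members and gene lists were chosen with earlier results of these data known. Named genes were all 10 members, up to 2 further genes of smallest edgeR p in each partner list, and the 3 closest profiles of members ranging over 2 log2 units (prior count 2). Exon lengths are from GENCODE M21 and promoters from RefSeq on GRCm38.p6, not the authors' build.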

Additional observations from a re-analysis of the deposited data

How the results depend on the processing

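With edgeR's quasi-likelihood test 1 gene of all passed and 0 members did, and RLE or upper-quartile scaling and a stricter filter gave the same counts. No filter on low counts gave 6 genes, DESeq2 776, limma-voom 0, the likelihood ratio test 312, and the replicate block 0. Members called were 2 with DESeq2, 1 with the likelihood ratio test and 0 with the replicate block. Same-numbered libraries share only a number in the labels, and whether their mice were paired is not stated. The correlation of their deviations over genes was 0.039, which cannot decide it, and the main fit assumed no pairing. Without each library in turn, edgeR and DESeq2 (the DESeq2 fits added after the data were seen) together gave 0 to 906 genes and 0 to 4 members; edgeR alone gave 0 to 106 genes and 0 to 1 member, Cd24a. Each of these fits leaves 1 library in a group, so its calls rest on the spread between the 2 mice of the other group.

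Spn, Cd47 and Cd33 kept their direction in every alternative run. The log2 fold change of Cd34 was -0.21 with limma-voom and -0.31 with the replicate block, and that of Thy1 was -0.47 and -0.43. Cd44 was -0.019 with upper-quartile scaling, which moved the median of all genes by -0.022. Over the left-out libraries Cd34 ranged from -2.18 to 1.33, Thy1 from -2.61 to 1.46, Cd28 from -3.90 to 0.58, Cd24a from -1.53 to 0.42, Cd93 from -0.34 to 0.077, Cd44 from -0.064 to 0.083 and Cd9 from -0.0016 to 0.19 with edgeR or DESeq2. The cause was not tested.

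With 2 mice per group the edgeR intervals of Cd34, Thy1 and Cd28 span several log2 units, so changes of that size were not detectable. Depth is not the limit for the members, which had 89 reads or more in every library.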

Other observations

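Other surface genes used to sort blood progenitors went both ways. Of 14 tested genes in that list 7 lay above 0 and 7 below, with a median log2 fold change of 0.002 (up to 0.20, without Msi2 -/- replicate 1). edgeR called 0, and DESeq2 called 1 higher, Cd48, a signalling ligand gene of blood cells. Cd48 had 12.2 and 25.5 CPM in the Msi2 -/- libraries, against 1.67 and 5.39 CPM in the controls. Both Msi2 -/- mice were above both controls (log2 fold change 2.42, SE 0.715, edgeR adjusted p = 0.346), and DESeq2's call was lost without control replicate 1 and without either Msi2 -/- replicate (adjusted p 0.0507 to 0.265). Procr, for the endothelial protein C receptor of stem cells, had 0.698 and 0.780 CPM in the Msi2 -/- libraries, against 2.02 and 1.28 CPM in the controls (log2 fold change -1.16, SE 0.389, edgeR adjusted p = 0.367).

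None of the genes that build the GPI anchor of Thy1 and CD24 was called by edgeR or DESeq2. All 27 genes of the list were tested, and 13 lay above 0 and 14 below, with a median log2 fold change of -0.001 (-0.098 without Msi2 -/- replicate 2). The groups did not overlap for 5 higher and 9 lower genes of the list, against 23.7% higher and 24.6% lower of all tested genes. At an unadjusted p under 0.05 edgeR had 1 higher, where 6.69% of all tested genes were higher. Pigs, for a subunit of the anchor transfer enzyme, had 134 and 136 CPM in the Msi2 -/- libraries, against 119 and 115 CPM in the controls. Its groups did not overlap, at a log2 fold change of 0.21 (SE 0.0637, edgeR adjusted p = 0.35).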
